A study of Homo sapiens with 12 samples.

Results

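Metallothioneins are small, cysteine-rich proteins that bind zinc, copper and cadmium. The genes described here are 8 members of the human metallothionein family (MT1A, MT1E, MT1F, MT1G, MT1H, MT1M, MT1X and MT2A), MTF1 and SLC30A1. They were chosen by name, as every probe set whose annotated symbol is one of these 10. The array annotation gave 17 such probe sets for 9 of the 10 genes, out of 19775 annotated genes on the array. MT1A had no probe set named for it in this annotation and is not analysed here. Each of the 17 probe sets carried a single symbol, and 15 passed a filter on low values (a log2 value above 4 on at least 3 arrays). All 9 genes kept at least 1 probe set.

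HK-2, an immortal cell line that derives from the proximal tubule of a human kidney, was exposed to a low dose of Kbr for 24 or 48 h. Control cells of the same time received the vehicle. Each of the 4 groups held 3 biological replicates on Affymetrix arrays, 12 in all, and the medium of every group held EGF, hydrocortisone, insulin, transferrin and selenite. The sources used here give no concentration, no full name of the agent and no name of the vehicle.

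Metallothionein genes are switched on by MTF1, a zinc finger transcription factor that senses free zinc and binds metal response elements (MREs) near their start sites. Glucocorticoids and oxidative stress can also induce them. SLC30A1 (ZnT1), which moves zinc out of the cell across the plasma membrane, is another well-known MTF1 target. In the kidney, metallothioneins bind cadmium in proximal tubule cells.

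Most metallothionein genes lie in a cluster on chromosome 16. In the RefSeq annotation of GRCh38.p14 the order of the protein-coding genes there is MT4, MT3, MT2A, MT1E, MT1M, MT1A, MT1B, MT1F, MT1G, MT1H and MT1X, with pseudogenes between them. MTF1, SLC30A1 and MT1HL1, a further metallothionein, lie on chromosome 1. RefSeq promoter sequences were at hand for 5 of the 10 genes. The 250 bases before the annotated start of 4 of them are shown, because they hold matches to the core of the element that MTF1 binds. Capitals mark matches to the MRE core, spelled TGCACNC or TGCGCNC, on either strand, and each sequence runs 5′ to 3′ along the gene.

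MT2A, chr16:56608334-56608583, plus strand: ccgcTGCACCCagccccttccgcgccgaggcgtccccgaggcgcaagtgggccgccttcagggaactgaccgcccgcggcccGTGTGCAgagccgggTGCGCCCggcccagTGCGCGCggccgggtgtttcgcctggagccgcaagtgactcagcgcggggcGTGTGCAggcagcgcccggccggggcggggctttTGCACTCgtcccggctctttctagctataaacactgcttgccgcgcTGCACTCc
MT1H, chr16:56669564-56669813, plus strand: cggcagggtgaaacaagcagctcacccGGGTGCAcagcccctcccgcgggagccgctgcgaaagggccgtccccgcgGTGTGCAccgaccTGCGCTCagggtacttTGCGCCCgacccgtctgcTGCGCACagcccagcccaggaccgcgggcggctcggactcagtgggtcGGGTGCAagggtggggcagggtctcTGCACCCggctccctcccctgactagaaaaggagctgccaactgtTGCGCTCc
MT1X, chr16:56682220-56682469, plus strand: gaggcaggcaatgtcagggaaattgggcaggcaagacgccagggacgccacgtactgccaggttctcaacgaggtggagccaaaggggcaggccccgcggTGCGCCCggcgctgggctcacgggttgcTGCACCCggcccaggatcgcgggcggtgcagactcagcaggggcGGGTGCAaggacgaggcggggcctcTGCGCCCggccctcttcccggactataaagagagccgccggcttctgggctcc
SLC30A1, chr1:211579162-211579411, minus strand: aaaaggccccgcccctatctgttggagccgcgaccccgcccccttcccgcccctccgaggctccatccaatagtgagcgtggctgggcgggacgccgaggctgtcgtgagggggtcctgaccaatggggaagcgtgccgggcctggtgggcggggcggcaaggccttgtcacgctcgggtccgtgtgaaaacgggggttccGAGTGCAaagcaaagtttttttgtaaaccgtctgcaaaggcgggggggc

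The MT2A stretch held 7 MRE cores, that of MT1H 8 and that of MT1X 4. SLC30A1 had 1 match and MTF1 had none in the same window. Of 35116 human promoters, 24.8% held at least 1 MRE core in 250 bases, 0.37% held at least 4 and 0.0313% at least 7. No match overlapped another in these genes. The core of the antioxidant response element, TGACNNNGC on either strand, occurred 1 time each in MT2A, MT1X and SLC30A1, against 10.9% of all promoters with at least 1. A match describes letters and does not show a site in use.

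**Figure D1:**
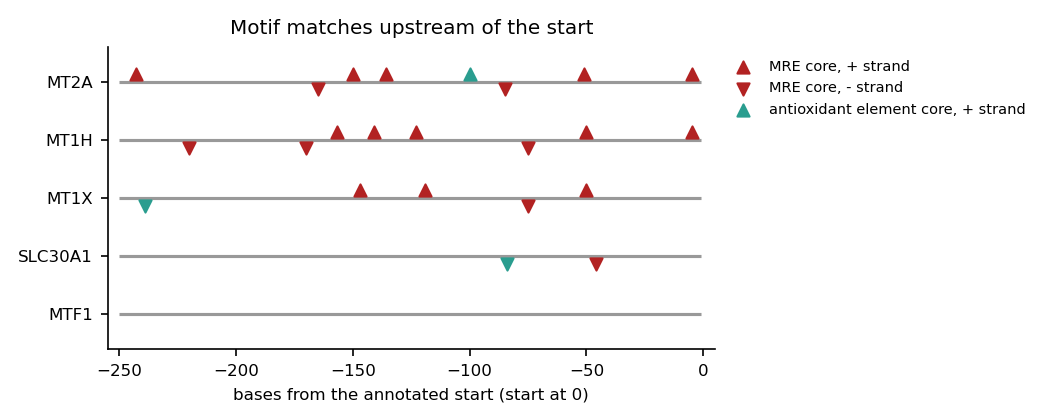
Positions of motif matches in the 250 bases before the annotated start of 5 genes, in bases from the start. Upward triangles mark the plus strand and downward triangles the minus strand of the gene, red the MRE core and green the antioxidant element core; MT2A, MT1H and MT1X carry 7, 8 and 4 MRE cores, SLC30A1 1 and MTF1 none.

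Expression is given as the deposited log2 values, where a step of 1 is a factor of 2, and p-values are from limma, adjusted over all 10665 genes tested. Array medians lay between 2.91 and 2.99, and arrays of a group correlated at r = 0.982 to 0.993. Of 13 proximal tubule markers with a probe set 1 passed the filter, SLC3A1, while CUBN, LRP2, SLC34A1 and SLC22A6 did not. All 5 general epithelial markers passed. Arrays with the same replicate number deviated together, so the fit with that number as a block is given where it changes the call of a member. For other genes it is given in part. Fits that left out 1 array did not use the block. A difference from control is called when its adjusted p is under 0.05. Shares of all genes called use this rule, and no share was counted at an unadjusted p. Precision is limited by how many arrays there are.

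The first comparison set Kbr against vehicle at 48 h, the time at which more genes were called. All 7 tested metallothionein members fell, by 1.73-fold (MT2A) to 3.35-fold (MT1M), and none rose. Their median log2 change was -0.86, against -0.004 over all genes tested. At this time 20.8% of all genes were called lower. Treated arrays lay below all controls in each of the 7, which held for 24.9% of all genes. The 7 calls held in all 12 fits that left out 1 array. Because the sequences of the family are near-identical, the 7 genes are not 7 separate measurements.

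MT2A encodes the most widely expressed member. It read 14.46, 14.29 and 14.45 in the 48 h controls and 13.63, 13.50 and 13.69 in treated cells. The groups were far apart compared with their spread, with means of 14.40 ± 0.093 and 13.61 ± 0.0971 (SD, n = 3). The log2 change was -0.79 (standard error 0.0896, adjusted p = 0.000134). MT1X, at the far end of the cluster, read 13.64, 13.39 and 13.57 in controls and 12.72, 12.58 and 12.75 in treated cells. This made a log2 change of -0.845 (adjusted p = 0.000153). MT1E, within the cluster, read 13.55, 13.34 and 13.49 in controls and 12.66, 12.56 and 12.59 in treated cells, a log2 change of -0.86 (adjusted p = 8.12e-05).

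MT1M showed the widest gap. Its values were 9.44, 9.05 and 9.46 in 48 h controls and 7.55, 7.32 and 7.85 in treated cells. The 3 treated arrays lay far below the lowest control. The log2 change was -1.74 (standard error 0.244, adjusted p = 0.000373). MT1F read 13.17, 12.84 and 12.97 in controls and 11.96, 11.59 and 11.83 in treated cells, a 2.29-fold fall (log2 change -1.20, adjusted p = 9.18e-05). MT1G went from 11.48, 11.01 and 11.29 to 10.49, 10.13 and 10.37 (log2 change -0.93, adjusted p = 0.00059). With the mean of its probe sets, 1 of which lay below the filter on every array, the MT1G change was -0.463 and was called as well. MT1H went from 12.55, 12.26 and 12.40 to 11.63, 11.48 and 11.60 (log2 change -0.83, adjusted p = 0.000151). In all of these the treated arrays lay below every control of the same time.

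**Figure D2:**
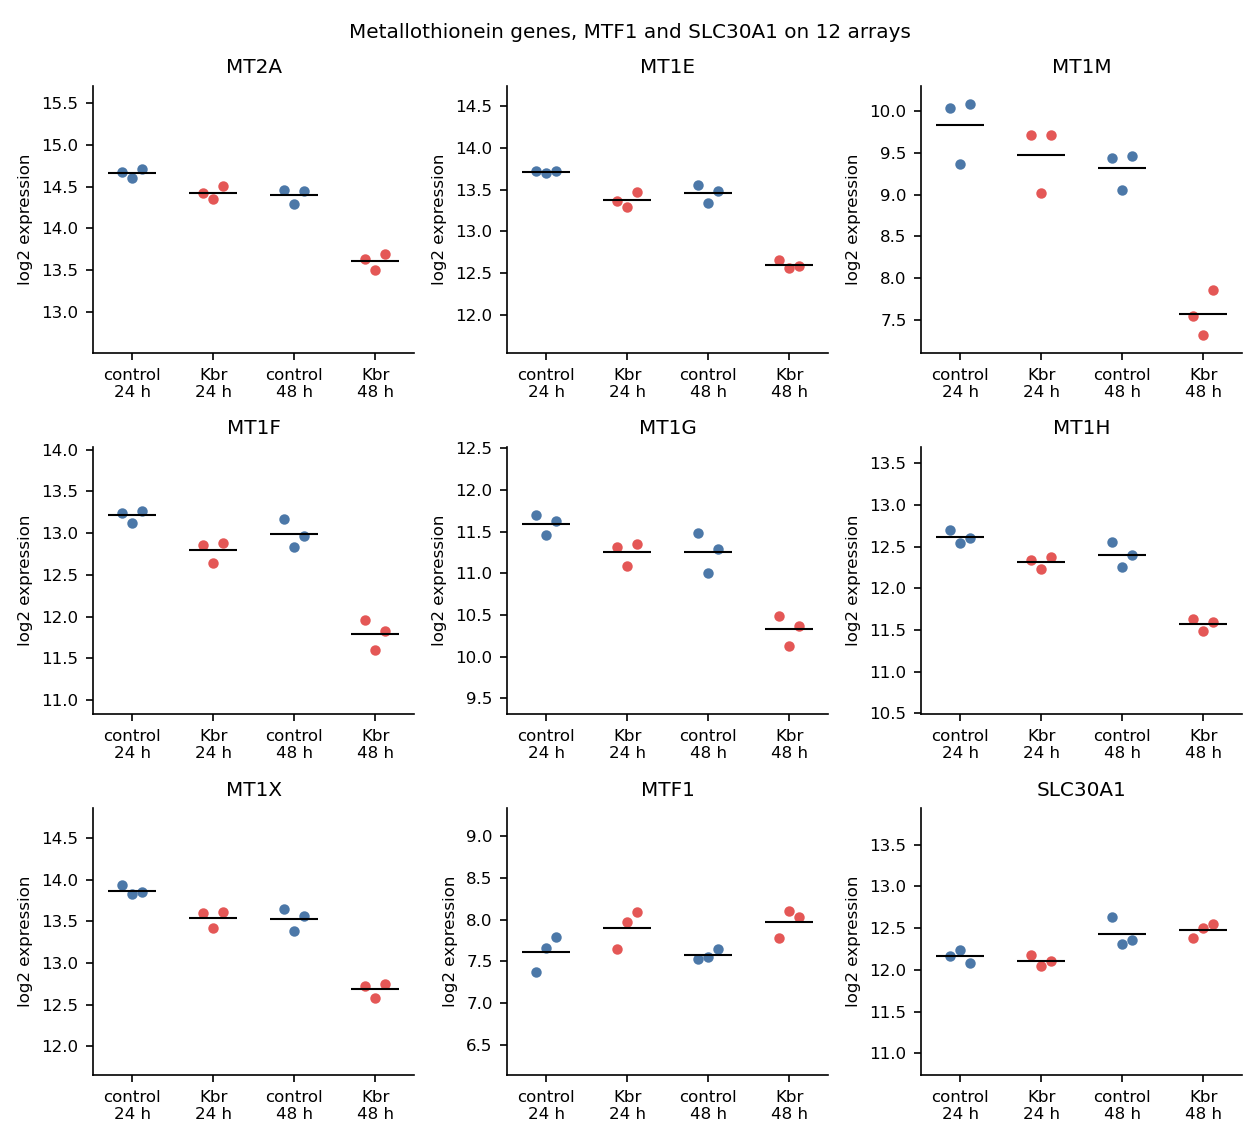
Log2 expression of 9 genes on the 12 arrays, 3 per group, with a black line at each group mean; blue points are controls and red points Kbr. The 7 metallothionein panels show the lowest values in Kbr cells at 48 h, 13.50 to 13.69 for MT2A and 7.32 to 7.85 for MT1M, while SLC30A1 shows no gap between treated and control cells.

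At 24 h the same genes stood slightly lower in treated cells, and 1 of the 7 was called. MT1E fell by a log2 change of -0.34 (standard error 0.0863, adjusted p = 0.0471), from 13.73, 13.70 and 13.72 to 13.36, 13.30 and 13.48. Over all genes 3.25% were called lower. The MT1E call held in 3 of 12 fits that left out 1 array, with adjusted p from 0.047 to 0.151. It was lost without any array of either 24 h group, without control replicate 3 at 48 h, or without Kbr replicate 1 or 2 at 48 h. The other 6 had log2 changes of -0.42 (MT1F), -0.35 (MT1M), -0.34 (MT1G), -0.325 (MT1X), -0.30 (MT1H) and -0.23 (MT2A), with adjusted p from 0.0703 to 0.416. MT2A read 14.67, 14.60 and 14.71 in controls and 14.42, 14.35 and 14.51 in treated cells, without overlap. MT1M overlapped widely, with 10.04, 9.37 and 10.09 in controls and 9.71, 9.02 and 9.71 in treated cells. Its change was -0.583 without control replicate 2, -0.223 without control replicate 3 and -0.121 without Kbr replicate 2 at 24 h. Treated arrays lay below all controls in 6 of the 7 genes, against 15.9% of all genes.

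Paired by replicate number, each treated array was lower than its control in all 3 pairs for all 7 genes at 24 h. The share of all genes lower in all 3 pairs was not counted. For MT1M the pair differences at 24 h were -0.33, -0.35 and -0.38. With the replicate number as a block, all 7 metallothioneins were called lower at 24 h, with adjusted p of 0.00512 (MT1F) to 0.0325 (MT1M). In that fit 14% of all genes were called lower.

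**Figure D3:**
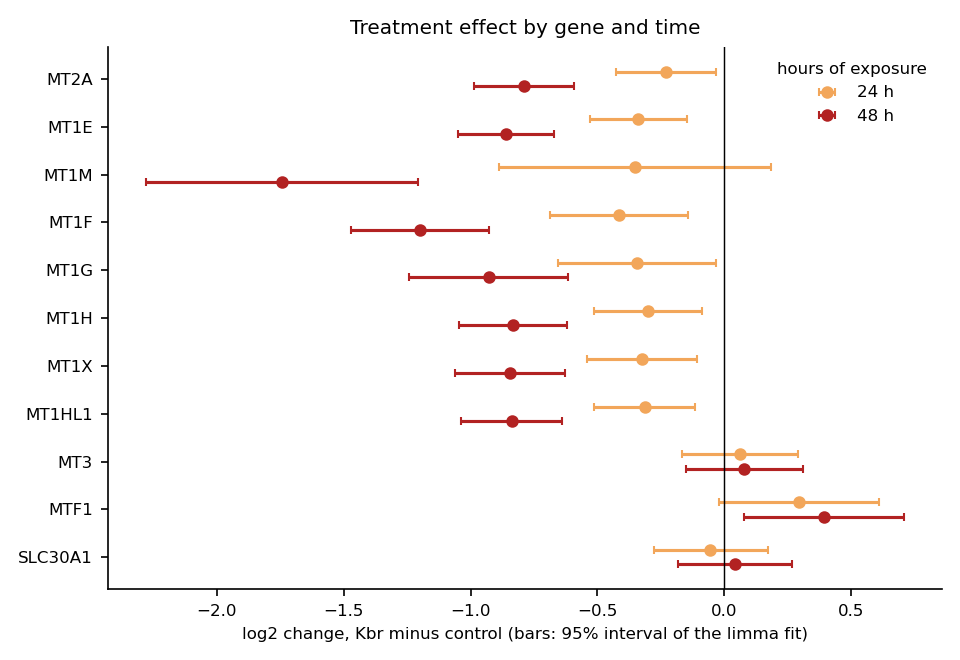
Log2 change of Kbr against control for each gene at 24 h (orange) and 48 h (red), with 95% intervals from the limma fit of 3 against 3 arrays. The 48 h values of the 7 metallothionein members and MT1HL1 lie between -1.74 and -0.79, MT3 and SLC30A1 sit near 0, and MTF1 is at 0.30 and 0.39.

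The effect was larger at 48 h than at 24 h in each of the 7 members, by -0.52 (MT1X, MT1E) to -1.39 (MT1M) on the log2 scale. None of the 7 differences passed limma's test over all genes (adjusted p from 0.103 to 0.203), although 7 of 7 had an unadjusted p under 0.05. Over all genes 0.075% were called lower for this difference by adjusted p. The share of all genes at an unadjusted p under 0.05 was not counted. With the replicate block all 7 were called, with adjusted p from 0.00942 to 0.021, against 3.95% of genes called lower. Without Kbr replicate 3 at 48 h, MT1F (adjusted p = 0.0462), MT1M (0.0444) and MT2A (0.0351) passed without the block.

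Within treated cells all 7 genes fell from 24 to 48 h, with log2 changes from -0.745 (MT1H) to -1.91 (MT1M, adjusted p = 0.00291), where 5.04% of all genes fell. The controls moved in the same direction by less. Their log2 changes from 24 to 48 h were -0.21 to -0.51, and limma called none, where 1.88% of all genes were called lower. Of the 7, 4 had an unadjusted p under 0.05, a threshold at which all genes were not counted. With the block 6 of the 7 were called lower in controls, all but MT1F (adjusted p = 0.0567), where 13.3% of all genes were called lower. Control MT2A went from 14.60 to 14.71 at 24 h down to 14.29 to 14.46 at 48 h. Those 48 h controls thus lay at the level of the 24 h treated arrays, which read 14.35 to 14.51. The treated cells at 48 h were below both.

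Averaged over both times, the 7 genes were lower by a median log2 value of -0.60, from -0.51 (MT2A, adjusted p = 0.000163) to -1.05 (MT1M, adjusted p = 0.000744). In that comparison 23% of all genes were called lower. MTF1 was called higher, by 0.345 (adjusted p = 0.0173), as were 22.1% of all genes. This call held in all 12 fits that left out 1 array and in 8 of 9 other settings. It was lost with the mean of the probe sets (0.185, adjusted p = 0.0513). The other MTF1 sets averaged 0.211 (adjusted p = 0.0528 over all probe sets) and 0 (adjusted p = 0.998), so the call rests on the strongest set.

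How far the members can be told apart depends on the probe sets. Of the 11 tested probe sets of the 7 genes and MT1HL1, 10 carry the suffix that Affymetrix gives to sets with probes that may bind other transcripts. The exception was the MT1M set. Array by array, deviations of these 11 sets from their group means correlated with a median r of 0.812 (range 0.38 to 0.97 over 55 pairs), all on the same 12 arrays. The MT1M set correlated with the others at 0.415 to 0.847. The replicate number was not removed from these deviations, and the part of cross-binding in them was not tested. The change of MT1M relative to the mean of the other 6 members, taken within each array, was -0.025 at 24 h and -0.835 at 48 h. The latter comparison gave an exact permutation p of 0.1 (two-sided, n = 3 per group), the smallest possible with 3 against 3 arrays. MT1M was singled out after its values were seen.

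Where a gene had several tested probe sets, the family agreed in direction. The set that stands for MT1F had a log2 change of -1.20 at 48 h and its other set one of -1.60. For MT1X the corresponding values were -0.845 and -1.07, and for MT1E -0.86 and -0.95. In each of these genes the set with the lower mean level fell more. The part of signal level in the size of a fall was not tested. Tested set by set over 22368 probe sets, all 10 sets of the 7 genes were called lower at 48 h, where 16.9% of all sets were. At 24 h none of the 15 tested member sets was called by limma, where 1.84% of all sets were called lower. At an unadjusted p under 0.05, 9 were lower, without a count over all sets at that threshold. With the block 10 were called lower and 2 higher at 24 h, where 9.75% and 8.45% of all sets were. A second MT1G set lay between 2.44 and 2.47 on every array, below the filter, and gave no measurement of change.

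Other metallothioneins on the array followed no single pattern. MT1HL1, the copy outside the cluster, fell at 48 h from 13.58, 13.35 and 13.49 to 12.65, 12.54 and 12.71 (log2 change -0.84, adjusted p = 0.000115). At 24 h it was at -0.31 (adjusted p = 0.0648, and 0.0143 with the block). Its probe set is of the cross-binding kind as well. MT3, the brain-enriched member next to MT2A in the cluster, lay between 3.99 and 4.50 on all arrays, close to the filter value of 4. Its log2 change was 0.06 at 24 h and 0.08 at 48 h (adjusted p = 0.565, 95% interval -0.149 to 0.31). MT4, the epithelial member at the end of the cluster, lay at 2.27 to 2.31 and was not tested.

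MTF1, the zinc-sensing activator of these genes, moved the other way. Its strongest probe set read 7.53, 7.56 and 7.65 in the 48 h controls and 7.78, 8.10 and 8.03 in treated cells, without overlap. It was called higher by a log2 change of 0.39 (standard error 0.143, adjusted p = 0.0455), where 22% of all genes were called higher and 26% had no overlap in that direction. This call held in 5 of 12 fits that left out 1 array (adjusted p up to 0.14). It held in 5 of 10 other settings (up to 0.12), the block among them (0.0032). It was lost without control or Kbr replicate 2 at 24 h, without any 48 h control, and without Kbr replicate 2 or 3 at 48 h. At 24 h the change was 0.30 (adjusted p = 0.237, and 0.0314 with the replicate block, which called 10.4% of all genes higher). All 3 treated arrays were above the control of the same number, a pattern not counted over all genes. The other sets did not show the same size. Its other sets were at 0.19 (adjusted p = 0.193) and 0.03 at 48 h (adjusted p = 0.911 over all probe sets).

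SLC30A1, the zinc exporter, gave different answers from its probe sets. The set that stands for the gene read 12.63, 12.31 and 12.36 in 48 h controls and 12.38, 12.50 and 12.55 in treated cells, which overlapped. Its log2 change was 0.04 (95% interval -0.184 to 0.266, adjusted p = 0.776). Another set read 8.46, 8.73 and 9.06 in controls and 9.51, 9.68 and 10.11 in treated cells, a log2 change of 1.015 without overlap. That rise passed over all probe sets (adjusted p = 0.00529, where 20.1% of sets rose) and in all 12 fits that left out 1 array. At 24 h the same pair of sets changed by -0.05 and 0.34 and neither was called without the block. With the block 2 member sets were called higher at 24 h, and which sets they were is not given here. The last set lay at 2.08 to 2.11 on every array. With the mean of the probe sets, SLC30A1 was called higher at 48 h by 0.35 (adjusted p = 0.00803).

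In time, the set that stands for SLC30A1 rose from 24 to 48 h in treated cells by 0.36 (adjusted p = 0.0458), where 5.6% of all genes rose. This call held in 1 of 12 fits that left out 1 array, that without control replicate 1 at 48 h (adjusted p up to 0.139), and in 5 of 10 other settings. Controls moved by 0.27 over the same time (adjusted p = 0.163).

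**Figure D4:**
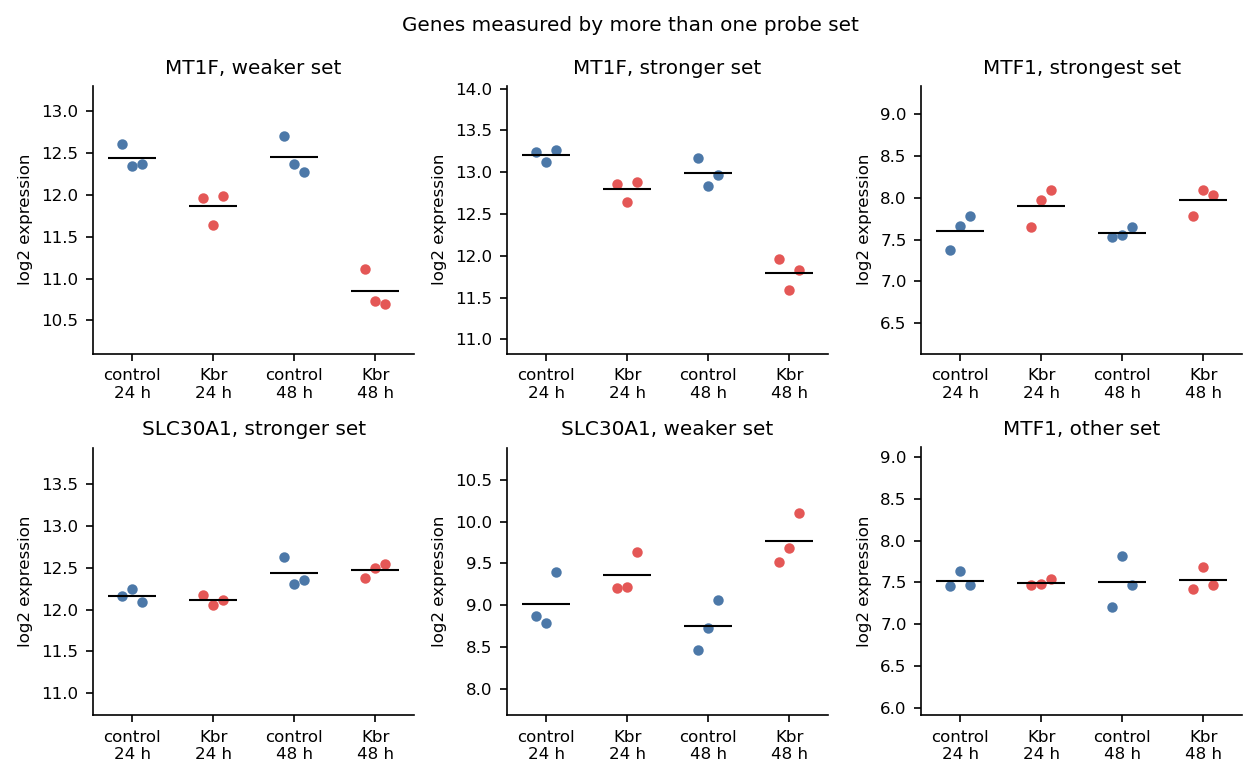
Log2 expression on 12 arrays for 6 probe sets of 3 genes, with group means as black lines, controls in blue and Kbr in red. Both MT1F sets are lowest in Kbr cells at 48 h, the SLC30A1 sets differ (0.04 against 1.015 at 48 h), and so do the plotted MTF1 sets (0.39 against 0.03).

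The other zinc transporters were followed as 2 lists. SLC30A proteins carry zinc out of the cytosol into vesicles, organelles or the outside, and SLC39A (ZIP) proteins carry it in. Of 6 tested SLC30A genes besides SLC30A1, 2 fell at 48 h and none rose, with a median log2 change of -0.16. Over all genes 20.8% fell and 22% rose at this time, and the counts of the gene lists are to be read against these shares. SLC30A2, a vesicular and plasma membrane zinc exporter, read 9.30, 9.34 and 8.93 in 48 h controls and 7.51, 7.92 and 7.18 in treated cells. It fell 3.15-fold (log2 change -1.65, adjusted p = 0.000221), and its second probe set fell by 1.74 on the log2 scale. Controls of SLC30A2 stood at 8.41 at 24 h and 9.19 at 48 h, while treated cells stayed at 7.52 and 7.54. SLC30A9 fell by 0.44 (adjusted p = 0.00392), but a second probe set rose by 1.00 (adjusted p = 0.0113 over all probe sets), so its direction is unsettled. SLC30A6, which loads zinc in the Golgi, was at 0.27 (adjusted p = 0.0743, and 0.0221 with the block, which called 28.7% of all genes higher), and SLC30A5 at 0.26 (adjusted p = 0.116). A second SLC30A6 set was at 0.553 and passed over all probe sets (adjusted p = 0.0282), a call lost without control replicate 1 or Kbr replicate 2 or 3 at 48 h (up to 0.0921).

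At 24 h SLC30A2 was the exporter called, where 3.25% of all genes were called lower. Its log2 change was -0.895 (adjusted p = 0.0345, and 0.00156 with the block). The call was lost without control replicate 1 or 2 or any treated array at 24 h (adjusted p up to 0.132). SLC30A4 was at -0.38 (adjusted p = 0.445).

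Of 11 tested SLC39A importers 2 rose and 4 fell at 48 h, with a median of -0.14, against 22% and 20.8% of all genes. SLC39A14 (ZIP14), a zinc and manganese importer induced in inflammation, read 10.315, 10.46 and 10.43 in controls and 12.21, 11.77 and 10.95 in treated cells. It rose 2.36-fold (log2 change 1.24, adjusted p = 0.00247), and the treated arrays were widely spread. SLC39A6 rose by 0.44 on the log2 scale (adjusted p = 0.00967). SLC39A8 (ZIP8), a close relative of SLC39A14, fell 2.05-fold (log2 change -1.035, adjusted p = 0.000334), from 10.23, 10.27 and 10.09 to 9.45, 9.02 and 9.01. SLC39A13, a zinc transporter of the secretory pathway, fell by 1.12 on the log2 scale (adjusted p = 0.00141).

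The other importers called, SLC39A4 (-0.75, adjusted p = 0.0183, and 0.000185 with the block) and SLC39A10 (-0.63, adjusted p = 0.0288, and 0.00204 with the block), are named after their values were seen. Both were lost without Kbr replicate 1 or 2 or control replicate 3 at 48 h, SLC39A4 also without control replicate 1 and SLC39A10 without control replicate 2 (adjusted p up to 0.0737 and 0.105). The count of importers that fell ran from 2 to 5 when 1 array was left out, and SLC39A11 passed in 4 of the 12 fits (adjusted p from 0.04, against 0.0608 with all arrays). SLC39A11 also passed lower with the block on all arrays (adjusted p = 0.0167), where 28.8% of all genes were called lower. At 24 h limma called no importer, with 2 lower at an unadjusted p under 0.05. The block called the same number lower, SLC39A8 (-0.43, adjusted p = 0.0168) and SLC39A13 (-0.63, adjusted p = 0.0053), where 14% of all genes were called lower. SLC39A6 (0.18) and SLC39A9 (0.14) were not called at 24 h.

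**Figure D5:**
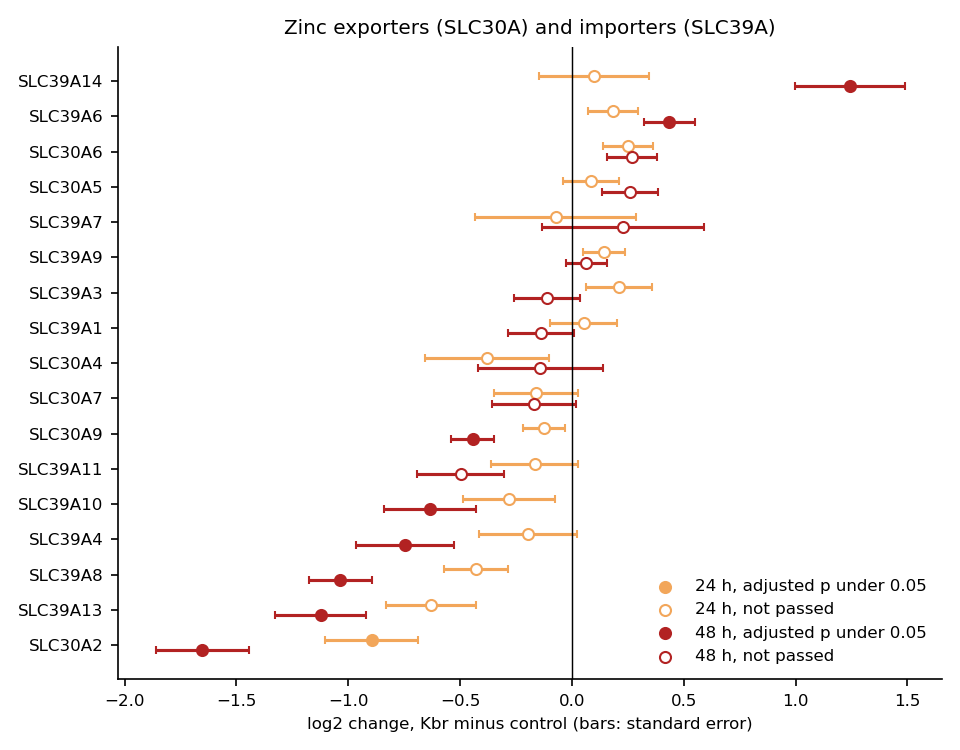
Log2 change of Kbr against control for 17 tested zinc transporter genes at 24 h (orange) and 48 h (red), ordered by the 48 h change, with standard errors; filled points passed the test. SLC30A2 is lowest at -1.65 and SLC39A14 highest at 1.24 at 48 h, and SLC30A2 is the filled point at 24 h.

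Metallothioneins also bind copper, and of 12 tested genes of copper handling 3 rose and 1 fell at 48 h, with a median of 0.04, where 22% of all genes rose and 20.8% fell. SLC31A1 (CTR1), the copper importer of the plasma membrane, read 8.57, 8.74 and 9.10 in controls and 9.62, 9.66 and 9.66 in treated cells (log2 change 0.845, adjusted p = 0.000566). Its other 2 tested probe sets changed by 0.08 and 0.15. The copper chaperone of cytochrome oxidase SCO1 rose by 0.65 on the log2 scale (adjusted p = 0.000982), and the copper-zinc superoxide dismutase SOD1 by 0.53 (adjusted p = 0.00343). The metalloreductase STEAP2 fell by 1.05 on the log2 scale (adjusted p = 0.023, and 0.00556 with the block). The call was lost without replicate 2 of either 48 h group or Kbr replicate 3 at 48 h (adjusted p up to 0.0793). ATOX1, named after its value was seen, passed lower without Kbr replicate 3 at 48 h (adjusted p = 0.0195, against 0.153 with all arrays and 0.0418 with the block). With the block 2 genes fell at 48 h, where 28.8% of all genes did. At 24 h limma called none of the 12, with 2 higher and 1 lower at an unadjusted p under 0.05. The block called 2 higher and 1 lower, where 10.4% and 14% of all genes were. SCO1 was then at 0.41 (adjusted p = 0.0529, 0.00449 with the block, and 0.0452 without control replicate 3 at 24 h). SOD1 was at 0.29 (0.0202 with the block) and STEAP2 at -0.82 (0.0396 with the block).

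Since the medium held hydrocortisone, which can induce metallothioneins, glucocorticoid-responsive genes were examined as well. Of 9 tested, 5 fell and 1 rose at 48 h, with a median of -0.645, beside 20.8% and 22% of all genes. The kinase SGK1 went from 13.83, 13.93 and 13.65 in controls to 12.25, 12.61 and 12.58 in treated cells, a 2.50-fold fall (adjusted p = 4.02e-05). The transcription factor gene CEBPD had a log2 change of -0.645 (adjusted p = 0.000737), the receptor co-chaperone FKBP5 one of -0.73 (adjusted p = 0.0107) and the glucocorticoid receptor gene NR3C1 one of -0.75 (adjusted p = 0.0119). The other 4 tested probe sets of NR3C1 had changes of -0.57, -0.51, -0.45 and -0.39 and none was called. TSC22D3 (GILZ) was lower by -1.32 (adjusted p = 0.0341, and 0.000352 with the block). It lost its call without replicate 1 of either 48 h group, control replicate 2 or Kbr replicate 3 at 48 h (adjusted p up to 0.133).

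The member that rose at 48 h, ERRFI1 (0.71, adjusted p = 0.0283), is named after its value was seen. It was lost without replicate 2 of either 48 h group, control replicate 3 or Kbr replicate 1 (adjusted p up to 0.106). At 24 h 1 of the 9 fell, CRISPLD2 (-0.63, adjusted p = 0.025, and 0.0097 with the block), where 3.25% of all genes were called lower. That call was lost without control replicate 1 or 2 or any treated array at 24 h (adjusted p up to 0.108). With the block 4 fell at 24 h, CRISPLD2, FKBP5 (-0.54), TSC22D3 (-1.29) and NR3C1 (-0.59), and 2 rose at 48 h. Those 2 were ERRFI1 (adjusted p = 0.03) and DUSP1 (0.51, adjusted p = 0.00665, against 0.0615 without the block), the latter named after its value was seen. The block called 14% of all genes lower at 24 h and 28.7% higher at 48 h. Without Kbr replicate 3 at 48 h, NFKBIA, named after its values were seen, passed higher at 24 h (adjusted p = 0.0369) and lower at 48 h (0.00462).

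Markers of several classes moved beside the metallothioneins. Of 6 fibroblast markers 3 passed the filter, COL1A1, DCN and LUM, while COL1A2, COL3A1 and PDGFRB did not. The log2 of their summed level lay at 12.47 to 12.98 in 24 h controls, 11.83 to 12.31 in 24 h treated cells, 12.39 to 12.46 in 48 h controls and 10.55 to 11.08 in 48 h treated cells. The summed level of the proximal tubule markers was 8.37 to 9.09 in 24 h controls, 7.65 to 7.95 in 24 h treated cells, 9.09 to 9.96 in 48 h controls and 7.90 to 8.14 in 48 h treated cells. Of the 13 markers summed only SLC3A1 passed the filter, so this level follows largely 1 gene. The SLC3A1 means were 8.48, 7.14, 9.43 and 7.515 in the same order of groups. No marker of endothelium (of 5) or leukocytes (of 5 with a probe set) passed. At 48 h, where 20.8% of all genes were called lower, so were the podocyte marker SYNPO (-1.31), the epithelial KRT19 (-0.96), EPCAM (-0.41) and CDH1 (-1.49). The injury markers VCAM1 (-2.86), CD24 (-1.08) and HAVCR1 (-0.995) were also called lower. PODXL (-0.34), KRT8 (-0.66), KRT18 (0.36) and PROM1 (-0.88) of the same classes were not called. RNA quality can be read from ACTB, whose 3′ minus 5′ log2 difference averaged 0.815 in controls and 0.909 in treated cells at 48 h. The part of any of these in the fall of the metallothioneins was not tested. In bulk RNA, fewer cells of a type and less RNA per cell cannot be told apart.

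The oxidative stress genes HMOX1 and NQO1 rose in the same cells. HMOX1, the inducible heme oxygenase, had log2 changes of 1.97 at 24 h and 2.67 at 48 h, and the quinone reductase NQO1 of 1.29 and 2.73. Both passed at both times, where 2.48% of all genes rose at 24 h and 22% at 48 h. Across the 12 arrays, the genes whose profile was most like the mean of the 7 metallothioneins were CHRDL1, SDC3, SPCS3, ACADVL and MYLK (Pearson's r from 0.978 to 0.981). SDC3, a cell surface proteoglycan, had log2 changes of -0.82 and -2.02 at the 24 h and 48 h comparison, and ACADVL, an enzyme of fatty acid oxidation, of -0.25 and -0.95. Those most like SLC30A1 were ACP1, PELI2, TRIM4, SLC12A7 and HEIH (r from 0.870 to 0.894). These genes were picked for their likeness, and the arrays share the groups.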

How the data were processed

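The values are log2 expression per probe set, as the authors deposited them; the submitters' processing notes name GCRMA, without version or settings. That method corrects for background modelled on the letters of each probe, so weak sets sit at a floor. Probe sets with 1 symbol (41091 of 54675) were used; for a gene with several, the one with the highest mean over the 12 arrays stood for it. Genes above 4 on at least 3 arrays (10665) were fitted with limma 3.58.1 in R 4.3.3, on group means of all 12 arrays, checked on simulated data. P-values are two-sided, adjusted by Benjamini-Hochberg over all genes, with a threshold of 0.05; probe sets (22368) were also fitted singly.

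Deviations from group means correlated at 0.279 to 0.701 between same-numbered arrays (18 pairs) and at -0.454 to -0.0613 otherwise, so numbers pair the arrays. Labels call the replicates biological, without saying how the cultures differed.

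The members, lists and alternatives were chosen with earlier results of these data known. Named genes are all members, up to 4 genes per list with the smallest p at each time, the 5 most alike in profile, HMOX1, NQO1, and those marked as seen first. Alternatives were the block, other filters, scalings and probe set rules, a trend, only the groups compared and leaving out each array.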

Additional observations from a re-analysis of the deposited data

Results flagged for a closer look

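The effect of Kbr differed between the times, by the test of that difference, in 2 of the genes named. They were picked from all genes named because they passed. Over all 10665 genes 0.075% were called lower for this difference, and the share called higher is not given here. SGK1 had a log2 change of -0.16 at 24 h and -1.32 at 48 h, a difference of -1.16 (limma, adjusted p = 0.0269). NQO1 had changes of 1.29 and 2.73, a difference of 1.44 (adjusted p = 0.0269). With the replicate block the adjusted p was 0.0105 for both genes. Each difference passed in 3 of 12 fits that left out 1 array, with adjusted p up to 0.0995 for SGK1 and 0.0913 for NQO1. SGK1 was lost without any 24 h array, without control replicate 1 or 2 or without Kbr replicate 2 at 48 h. NQO1 was lost without any 24 h array but Kbr replicate 2, without control replicate 1 or 2 or without Kbr replicate 1 or 2 at 48 h.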

How the results depend on the processing

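Of the 9 genes tested, 8 were called at 48 h, 8 on average and 8 between times in treated cells. These counts stayed within 7 to 8 in all other settings, but the gene beside the metallothioneins was not always the same. It was MTF1 at 48 h and on average, and SLC30A1 between times. With the mean of the probe sets MTF1 was not called (limma, adjusted p = 0.12 at 48 h and 0.0513 on average). SLC30A1 was called in its place (adjusted p = 0.00803 and 0.0122). The 7 metallothioneins were called lower in each of these 3 comparisons in all settings run. At 24 h, where 1 was called, 8 passed with the replicate block, which called 10.4% of all genes higher and 14% lower. The count was 2 with quantile normalization repeated, 2 with the mean of the probe sets and 3 with an intensity trend. It was 0 with the array median subtracted, with every probe set tested by itself or with only the groups compared. The share of all genes called is given for the main setting and the block only. Counts in the other settings cannot be set against such a share. For the difference between times 7 passed with the block against 0 without it, and for controls from 24 to 48 h 6 with the block and 1 with the trend against 0. Of the member probe sets 12 passed at 24 h with the block, 1 with no filter and 3 with the trend, against 0. Leaving out 1 array gave 0 to 1 genes at 24 h, 7 to 8 at 48 h, 8 on average, 0 to 3 for the difference, 0 for controls, 7 to 8 for treated cells over time, and 0 and 11 to 12 probe sets at 24 and 48 h. Only the groups compared gave no separate value for the average and the difference, which use all groups.

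Sign changes occurred in SLC30A1 and MTF1, in values that the main setting did not call. With the mean of its probe sets SLC30A1 stood at 0.0973 at 24 h, and at 0.225 on average, where it passed (adjusted p = 0.0122). Leaving out 1 array, its 48 h change ran from -0.0205 to 0.139 and its average from -0.0371 to 0.0425. MTF1 ran from -0.0304 to 0.214 for the difference, from -0.149 to 0.0563 over time in controls and from -0.0627 to 0.16 over time in treated cells. Over all 9 genes, comparisons and settings, calls were lost in 41 cases and gained in 29, with the sign kept. The causes were not tested. For the 9 member genes the block left the counts at 48 h, on average and over time in treated cells at 8.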
